A study of Mus musculus with 12 samples.

Results

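Cytochrome c oxidase, the last complex of the respiratory chain, has 3 nuclear-encoded subunits that exist in a muscle form and a general form, and the 6 genes of these pairs are described here across 4 groups of C2C12 cells. The muscle forms are Cox6a2, Cox8b and Cox7a1, and their general counterparts are Cox6a1, Cox8a and Cox7a2. They were chosen by gene symbol, with the higher Cox8b of differentiating cells and the lower Cox6a2 of mimic-treated cells already known, so values of the muscle forms are given as a description. No p-value is printed for them, and where it is said which of them passed the threshold, nothing is read from it. Probes were annotated to 5 of the 6 genes, and all 5 were among the 10653 genes tested. Cox8a was not analysed here. Cox8b passed the filter on dim probes because of the Day2 arrays, the group where it was high.

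Cytochrome c oxidase takes electrons from cytochrome c, reduces oxygen to water and pumps protons across the inner mitochondrial membrane. Its catalytic core is encoded by mitochondrial DNA, and smaller nuclear-encoded subunits surround the core and contribute to its stability, dimer contacts and regulation. In adult heart and skeletal muscle the muscle forms of subunits 6a, 7a and 8 take the place of the general forms made in most other tissues. C2C12 is an established mouse myoblast line whose cells stop dividing in low-serum medium, switch on muscle genes and fuse into myotubes. The microRNA miR-206, made in skeletal muscle, is known to promote this differentiation.

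RNA of 3 samples in each group was hybridised to Illumina bead arrays. The antimiR cells received antimiR-206, an inhibitor of the microRNA, for 48 h and carry the label of beginning differentiation. The Day2 cells had spent 48 h in differentiation medium and carry the same differentiation label. The mimic cells received an siRNA that mimics miR-206 for 24 h and are labelled undifferentiated. The Day1 cells had spent 24 h in differentiation medium and are likewise labelled undifferentiated. A lipid transfection protocol is listed for all 12 samples alike. The sources name no control oligonucleotide, nor the medium of the treated cells, so the effects of an oligonucleotide as such and of miR-206 cannot be told apart. Replicates are numbered without a statement that they were separate cultures, so a p-value reflects only how these samples vary, and that variation may be technical.

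Before the results, 3 facts about the arrays bear on them. Median raw intensity was 49.5 to 63.2 and between 36.7% and 40.3% of the probes were above background on each array. That median is therefore a background level. Mean raw intensity differed more, from 160.6 on Day2 replicate 1 to 477.4 on antimiR replicate 2, and reached 418.1 on Day2 replicate 3. Myog, the myogenic factor that marks the start of differentiation, was above background on 0 of 3 antimiR arrays and on 3 of 3 Day2 arrays, and the intensities of 10 muscle differentiation markers summed to between 3090 and 3632 on antimiR arrays, 98130 and 107800 on Day2 arrays, 3091 and 3664 on mimic arrays and 3027 and 3098 on Day1 arrays. The summed markers of the antimiR arrays thus stood far nearer to those of Day1 than to those of Day2, despite the differentiation label. Taken singly, 2 of 9 tested were higher in antimiR than in Day1 cells, where 12.9% of all genes were. These were Atp2a1 (1.36, limma adjusted p = 0.0137) and Tnni2 (1.00, limma adjusted p = 0.014), and 0 were lower. The median change of the 9 was 0.51, against 0.01 over all genes, and 6 had an unadjusted p under 0.05. Under median scaling 0 of the 9 passed. Of 6 myoblast identity genes with a probe, Myod1, Des, Cdh15 and Vcam1 were above background on all 12 arrays. Cav3 was above background on the Day2 arrays alone and Myf5 on no array. The 6 summed to 4580 to 6370 on antimiR, 16560 to 17640 on Day2, 3222 to 6161 on mimic and 3240 to 3354 on Day1 arrays. Against Day1, Day2 arrays had log2 changes of 2.80 for Des, 2.73 for Cdh15 and 1.17 for Vcam1, while Myod1 (0.60) did not pass. Despite its name, the list thus rose in Day2 cells and does not single out undifferentiated ones. Of 5 tested, Cdh15 (0.87, limma adjusted p = 0.0064) and Des (0.63, limma adjusted p = 0.0274) were higher in antimiR than in Day1 cells. Cdh15 was also higher in mimic cells (0.86, limma adjusted p = 0.0216). Mimic replicate 1 correlated across genes at 0.993 with the Day1 arrays and at 0.971 with the other mimic arrays, so the mimic changes of the isoform genes are given with and without it. Day2 replicates 2 and 3 appeared exchanged between the scanner table and the authors' processed table, which does not touch the group's values. Fewer cells of a type and less RNA per cell cannot be told apart in these samples.

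The microRNA that was mimicked and inhibited is shown because the groups turn on it. Its mature sequence in RefSeq (GRCm38.p6, chr1:20679055-20679076, plus strand) has the seed, bases 2 to 8, in capitals.
mmu-miR-206-3p: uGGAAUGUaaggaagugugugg

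Promoters of 4 measured genes follow, to let the muscle and general forms be compared beside their values. Each is the 250 bases before the RefSeq gene start (GRCm38.p6), written 5′ to 3′ on the gene's strand, with motif matches in capitals. Cox8b lies at chr7:140900447-140900696 on the minus strand, Cox7a1 at chr7:30183921-30184170 on the plus strand, Cox6a1 at chr5:115348959-115349208 on the minus strand and Cox7a2 at chr9:79759854-79760103 on the minus strand. Cox6a2 is named only.
Cox8b: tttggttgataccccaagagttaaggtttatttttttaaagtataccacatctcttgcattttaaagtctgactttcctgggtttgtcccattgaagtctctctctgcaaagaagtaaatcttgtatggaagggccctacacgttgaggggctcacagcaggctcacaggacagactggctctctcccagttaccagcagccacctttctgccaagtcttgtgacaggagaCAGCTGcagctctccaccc
Cox7a1: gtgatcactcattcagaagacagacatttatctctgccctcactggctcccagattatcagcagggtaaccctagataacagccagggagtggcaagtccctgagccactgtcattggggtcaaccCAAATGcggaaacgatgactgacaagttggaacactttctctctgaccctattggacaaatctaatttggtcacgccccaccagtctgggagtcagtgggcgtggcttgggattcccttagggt
Cox6a1: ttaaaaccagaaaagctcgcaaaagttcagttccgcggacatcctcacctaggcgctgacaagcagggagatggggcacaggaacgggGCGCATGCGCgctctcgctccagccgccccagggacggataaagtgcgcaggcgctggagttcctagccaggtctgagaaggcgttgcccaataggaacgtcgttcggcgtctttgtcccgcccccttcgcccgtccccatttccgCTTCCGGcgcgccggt
Cox7a2: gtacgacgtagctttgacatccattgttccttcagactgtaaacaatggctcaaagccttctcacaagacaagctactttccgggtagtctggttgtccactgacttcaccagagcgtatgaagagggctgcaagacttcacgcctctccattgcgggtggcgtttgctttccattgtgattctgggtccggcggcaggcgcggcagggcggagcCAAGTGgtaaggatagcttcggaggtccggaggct

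The motifs searched, on both strands, were the E-box bound by myogenic factors (CANNTG), the NRF1 element (the first capitals in Cox6a1), the ETS core (CCGGAAG), the ERR element (TCAAGGTCA) and the MEF2 element. An E-box began 19 bases before the start of Cox8b, 124 before that of Cox7a1 and 35 before that of Cox7a2. E-boxes occurred in 66.2% of 32851 promoters of that length, so a match is common. Cox6a1 alone of the 4 held an NRF1 element, which 0.782% of promoters held, and an ETS core, which 6.91% held. No match to the ERR element (0.387% of promoters) or the MEF2 element (1.69%) was found in the 4 windows. These matches describe letters, not sites that were shown to be bound.

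Subunit 6a takes part in the regulation of the enzyme by adenine nucleotides, and its muscle gene, Cox6a2 (NM_009943), was high on Day2 arrays, intermediate on Day1 arrays and low in both treated groups. Values here and below are log2 normalized probe intensities, which cannot be compared between genes. Cox6a2 measured 4.73, 5.35 and 5.32 on the antimiR arrays. It measured 12.82, 12.42 and 12.54 on the Day2 arrays. On the mimic arrays it measured 7.73, 4.65 and 4.93, and on the Day1 arrays 9.19, 9.18 and 9.31. Day2 was thus highest and Day1 next, with mimic and antimiR arrays lowest and no overlap in any of the 4 comparisons described, although mimic replicate 1 stood nearer to Day1 than the other mimic arrays did. The dim arrays were still above background, with detection p-values of 0.0353 on antimiR replicate 1, 0.0417 on mimic replicate 2 and 0.0246 on mimic replicate 3.

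Cox6a2 averaged 12.60 ± 0.21 on Day2 arrays and 9.23 ± 0.07 on Day1 arrays (SD, n = 3 each), a log2 change of 3.37 (limma SE 0.56) or 10.3-fold. It averaged 5.77 ± 1.70 on mimic arrays and 9.23 ± 0.07 on Day1 arrays, a log2 change of −3.46 (SE 0.56). Without mimic replicate 1 that log2 change was −4.44. It averaged 5.13 ± 0.35 on antimiR arrays and 12.60 ± 0.21 on Day2 arrays, a log2 change of −7.46 (SE 0.56). AntimiR cells also had less of it than Day1 cells (log2 change −4.09, SE 0.56), in a comparison whose times differ. Both the mimic and the inhibitor of miR-206 were thus accompanied by less Cox6a2 than Day1 cells had. In the authors' processed values the mimic change was −2.15, the antimiR change against Day2 −5.78 and that against Day1 −2.51.

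**Figure D1:**
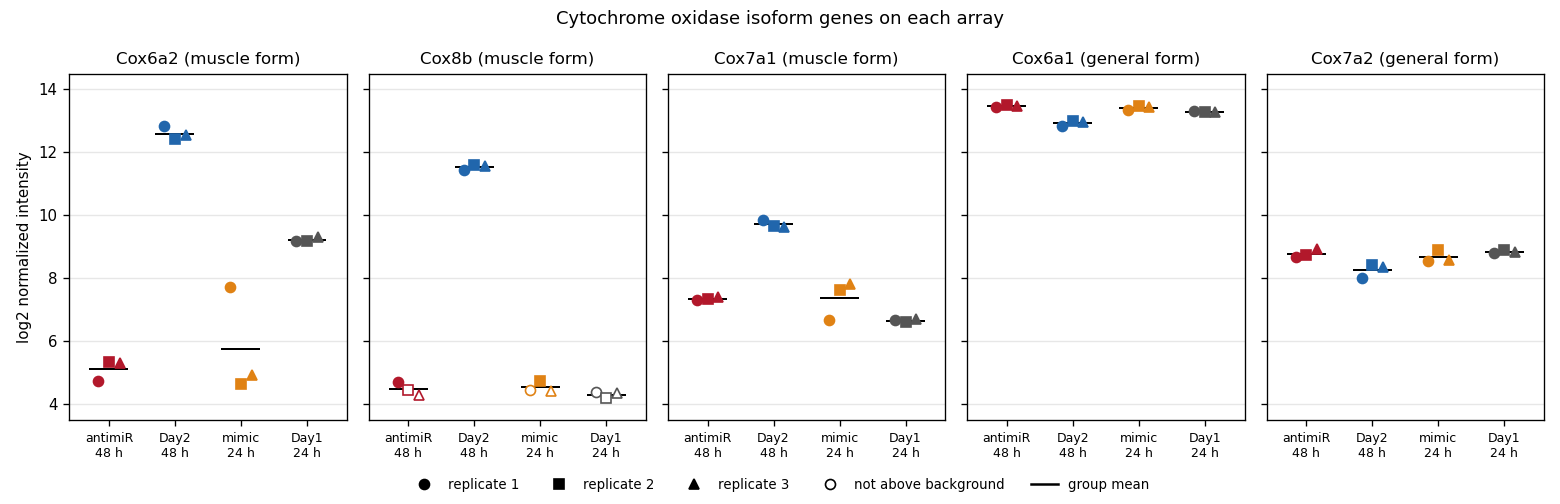
Log2 normalized intensity (vertical axis) of the 5 measured genes on each of the 12 arrays, by group along the horizontal axis. Symbols mark replicates, open symbols arrays where the probe was not above background, and bars the group means. Day2 arrays are highest for the 3 muscle forms and lowest for the general forms.

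Subunit 8 is the smallest subunit and helps to hold the assembled enzyme together. Its muscle gene, Cox8b (NM_007751), was at background level everywhere except in Day2 cells. It measured 4.69, 4.44 and 4.30 on antimiR arrays, where it was above background on 1 of 3. Day2 arrays gave 11.42, 11.60 and 11.58, above background on 3 of 3. Mimic arrays gave 4.46, 4.73 and 4.43, above background on 1 of 3, and Day1 arrays 4.37, 4.21 and 4.35, above background on 0 of 3. No Day2 value overlapped any other group, and antimiR, mimic and Day1 arrays all lay within a narrow band.

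Since Day1 arrays held no value above background, the change of Cox8b against Day1 is a bound: it was at least 115-fold higher in Day2 cells (fitted log2 change 7.23, SE 0.14, in means of 11.54 ± 0.10 and 4.31 ± 0.09). The bound sets each Day1 value no lower than the dimmest probe that its array measured above background, and it holds for this background correction, since the authors' processed values gave a log2 change of 5.01. In antimiR cells, at 4.48 ± 0.20 on average against 11.54 ± 0.10 in Day2 cells, the log2 change was −7.06 (SE 0.14), and −4.92 in the authors' processed values. The mimic change against Day1 was 0.23 (SE 0.14; 0.27 without mimic replicate 1) and the antimiR change against Day1 0.17 (SE 0.14), with the antimiR and Day1 values overlapping.

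Subunit 7a lies where the enzyme contacts its partner in dimers and supercomplexes. Its muscle gene, Cox7a1 (NM_009944), was above background on all 12 arrays. It measured 7.33, 7.35 and 7.39 on antimiR arrays and 9.87, 9.67 and 9.64 on Day2 arrays. Mimic arrays gave 6.68, 7.62 and 7.81 and Day1 arrays 6.67, 6.60 and 6.70. Day2 was again highest. The antimiR arrays all lay above the Day1 arrays, while mimic replicate 1 lay within the Day1 range and mimic replicates 2 and 3 above it.

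Cox7a1 averaged 9.73 ± 0.12 on Day2 arrays and 6.66 ± 0.05 on Day1 arrays (SD, n = 3 each), a log2 change of 3.07 (SE 0.22) or 8.39-fold. It averaged 7.36 ± 0.03 on antimiR arrays and 9.73 ± 0.12 on Day2 arrays, a log2 change of −2.37 (SE 0.22). Against Day1 the antimiR change was 0.70 (SE 0.22) and the mimic change, with a mimic mean of 7.37 ± 0.60, was 0.71 (SE 0.22). Without mimic replicate 1 the mimic change was 1.06 and passed the test, and with it the change did not pass. The antimiR change against Day1 passed, but lost that call when any of the 6 arrays compared was left out, with 0.67 to 0.72 as the values then. Against Day1, antimiR cells were thus higher in Cox7a1, lower in Cox6a2 and near background in Cox8b, and these differences between the genes were not tested.

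The general form of subunit 6a, Cox6a1, was represented by a pair of probes, and the brighter stood for the gene. It measured 13.44, 13.51 and 13.47 on antimiR arrays and 12.84, 12.98 and 12.96 on Day2 arrays. Mimic arrays gave 13.36, 13.47 and 13.43 and Day1 arrays 13.33, 13.27 and 13.27. Day2 arrays were the lowest, without overlap, in the reverse order of the muscle form, but over a far smaller range on the log2 scale. Cox6a1 fell by 0.36 in Day2 cells against Day1 (SE 0.08, limma adjusted p = 0.00111) and was 0.55 higher in antimiR than in Day2 cells (SE 0.08, limma adjusted p = 4.18e-05).

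Neither treatment changed Cox6a1 against Day1 past the threshold, also when mimic replicate 1 was left out (mimic change then 0.16, limma adjusted p = 0.152). The mimic change was 0.13 (SE 0.08, limma adjusted p = 0.265, 95% interval −0.03 to 0.30) and the antimiR change 0.19 (SE 0.08, limma adjusted p = 0.0897, 95% interval 0.025 to 0.35, which leaves out 0 before the adjustment over all genes). The second Cox6a1 probe gave −0.43 for Day2 against Day1 (SE 0.09, limma adjusted p = 0.000817 over all kept probes), 0.17 for mimic against Day1, 0.68 for antimiR against Day2 and 0.25 for antimiR against Day1. Both probes thus had the same sign in each comparison and fell on the same side of the threshold.

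The general form of subunit 7a, Cox7a2, measured 8.66, 8.75 and 8.94 on antimiR arrays and 8.02, 8.42 and 8.36 on Day2 arrays. Mimic arrays gave 8.54, 8.89 and 8.58 and Day1 arrays 8.80, 8.89 and 8.85. Day2 arrays were again the lowest, with no overlap with any other group. Cox7a2 fell by 0.58 in Day2 cells against Day1 (SE 0.13, limma adjusted p = 0.002) and was 0.52 higher in antimiR than in Day2 cells (SE 0.13, limma adjusted p = 0.00513). The mimic change against Day1 was −0.18 (limma adjusted p = 0.399, 95% interval −0.46 to 0.11; −0.11 without mimic replicate 1) and the antimiR change against Day1 −0.06 (limma adjusted p = 0.785, 95% interval −0.35 to 0.22).

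The calls of both general forms depended on the scaling. When each array was scaled by its median and not quantile-normalized, the median of all genes itself shifted by −0.12 in Day2 against Day1 and by 0.31 in antimiR against Day2. Relative to those shifts Cox6a1 stood at −0.68 and 0.91 and Cox7a2 at −0.62 and 0.65, in the same directions as before. Under that scaling neither passed the test in either comparison (limma adjusted p = 0.293 and 0.0696 for Cox6a1, and 0.404 and 0.231 for Cox7a2). The median was over all probes, most of them not above background, so it need not align the brighter probes. In Day2 against Day1 the SE was 0.49 for Cox6a1 and 0.54 for Cox7a2, against 0.08 and 0.13 in the main fit. The lost calls thus came with larger standard errors, a limit wherever median scaling is named.

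**Figure D2:**
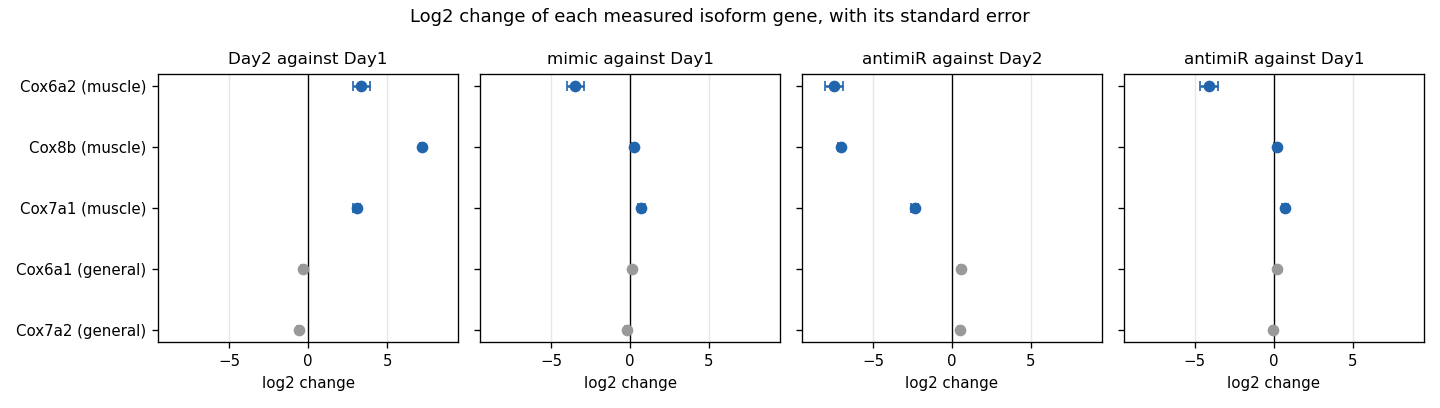
Log2 change (horizontal axis) of each measured isoform gene in the 4 comparisons, with bars for the limma standard error where they exceed the symbol. Muscle forms are higher in Day2 than in Day1 cells and lower in antimiR than in Day2 cells, and Cox6a2 is the muscle form that is lower in mimic than in Day1 cells (−3.46).

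Counted together, 3 of 3 muscle forms were higher and 2 of 2 measured general forms lower in Day2 than in Day1 cells at an adjusted p under 0.05. Of all genes tested, 57.1% passed in that comparison, 28.2% higher and 29% lower, and 65.9% had values that did not overlap between the groups. In antimiR against Day2 cells, 3 of 3 muscle forms were lower and 2 of 2 general forms higher, where 51.3% of all genes passed, 26.5% higher and 24.9% lower, and 61.8% did not overlap. With so many genes passing, and the muscle forms chosen with such changes known, nothing is read from these counts. The Day2 arrays serve in both comparisons, so they are not independent of each other.

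In mimic against Day1 cells, 1 of 3 muscle forms passed, Cox6a2, and 0 of 2 general forms, where 8.47% of all genes passed, 4.38% higher and 4.08% lower. That Cox6a2 call was lost when only the 6 arrays compared were fitted, and when Day1 replicate 2, Day1 replicate 3 or mimic replicate 3 was left out. Over all settings with 1 array left out the change ranged from −4.44 to −2.90. In antimiR against Day1 cells, 1 of 3 muscle forms was higher, Cox7a1, and 1 lower, Cox6a2, with 0 of 2 general forms past the threshold, where 22.7% of all genes passed, 12.9% higher and 9.78% lower. The values of 2 of 3 muscle forms did not overlap between mimic and Day1 arrays, where 24.6% of genes did not overlap, and likewise for antimiR and Day1 arrays, where 48.2% did not.

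The remaining subunits of the enzyme moved much less than the muscle forms. Of 14 listed genes for subunits without a muscle and general pair as chosen here, 12 had a probe and 8 passed the filter, of which 2 were higher and 1 lower in Day2 than in Day1 cells (median log2 change −0.06, against −0.02 over all genes). Cox4i1, the common form of subunit 4, was 0.38 higher (SE 0.09, limma adjusted p = 0.00375) and Cox5b, another structural subunit, 0.35 higher (SE 0.08, limma adjusted p = 0.00252), but neither passed under median scaling, where they stood at 0.057 and 0.025 relative to the shift of all genes (−0.065 and −0.10 before that shift is taken off). Ndufa4, first assigned to complex I and now counted with this enzyme, fell by 0.56 (SE 0.08, limma adjusted p = 6.11e-05). Under median scaling it fell by 0.96 without passing (limma adjusted p = 0.191), and 0 of the 8 passed in any of the 4 comparisons. Cox5a, Cox6b1, Cox6c, Cox7b and Cox7a2l did not pass, with log2 changes of −0.18, 0.06, 0.15, −0.54 and −0.20. The tissue-restricted forms Cox4i2, Cox6b2, Cox7b2 and Cox8c were not above background on any of the 12 arrays, and Cox7c was not analysed here.

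In antimiR against Day2 cells, 2 of the 8 were higher and 2 lower. Ndufa4 was 0.51 higher (limma adjusted p = 0.000191) and Cox7a2l, a homologue of subunit 7a that takes part in supercomplex formation, 0.54 higher (limma adjusted p = 0.00105). Neither passed under median scaling. Cox5b fell by 0.32 (limma adjusted p = 0.00574) and Cox4i1 by 0.25 (limma adjusted p = 0.0396), and under median scaling both turned without passing, to 0.079 and 0.14 relative to the shift of all genes (0.39 and 0.46 before). Mimic against Day1 gave 0 calls among the 8 in limma, of which 0 had an unadjusted p under 0.05, and 2 higher and 1 lower without mimic replicate 1. AntimiR against Day1 gave 1 higher, Cox7a2l, by 0.34 (limma adjusted p = 0.0432).

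The count of assembly factors and cytochrome c that passed was near the share of all genes. Of 26 listed, 24 had a probe and 22 passed the filter, with 6 higher and 7 lower in Day2 than in Day1 cells (median −0.08), where 28.2% of all genes were higher and 29% lower. Cox17, the copper chaperone of the enzyme, was 1.00 higher (SE 0.10, limma adjusted p = 2.25e-06). Cox14, which binds the newly made subunit 1, was 0.87 higher (SE 0.10, limma adjusted p = 6.1e-06), and Cox15, of the heme A pathway, 0.74 higher (SE 0.11, limma adjusted p = 7.56e-05). Higd1a, above background on 3 of 3 Day2 and 1 of 3 Day1 arrays, was 0.48 higher (SE 0.13, limma adjusted p = 0.0073). It reached the filter on dim probes only with its Day2 arrays, where it was high, so nothing is read from that p-value. Higd1a also passed the test in the fit with no detection filter.

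Among those that fell, Cmc2, a small protein of the intermembrane space, did so by 1.15 (SE 0.14, limma adjusted p = 9.29e-06) and Cox10, which makes heme O, by 0.79 (SE 0.16, limma adjusted p = 0.000872). Cycs, the electron donor cytochrome c, fell by 0.67 (SE 0.17, limma adjusted p = 0.00331). Pet100 fell by 0.61 (SE 0.20, limma adjusted p = 0.0186), a call lost without Day1 replicate 1 or Day2 replicate 1. Under median scaling 0 of the 22 passed in this comparison. In antimiR against Day2 cells 3 were higher and 6 lower, with Cox17 at −1.01 and Cmc2 at 0.92. Mimic against Day1 gave Cox20, a chaperone of subunit 2, 0.53 higher (SE 0.10, limma adjusted p = 0.0207) and Cox18, a membrane insertase, 0.44 lower (SE 0.12, limma adjusted p = 0.0451), which were 0.61 and −0.57 without mimic replicate 1, while 9 of the 22 had an unadjusted p under 0.05, and 2 higher and 7 lower without mimic replicate 1.

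Of 15 listed regulators of mitochondrial biogenesis, 14 were tested, and 5 were higher and 5 lower in Day2 than in Day1 cells (median 0.09), with 3 higher and 1 lower under median scaling. Ppargc1a, the coactivator PGC-1alpha, rose above background on the Day2 arrays alone, where it was at least 2.07-fold higher than on Day1 arrays. Esrrg, an estrogen-related receptor, and Perm1, a muscle regulator that acts with these factors, were likewise at least 1.32-fold and 1.34-fold higher. These bounds hold for this background correction, since the authors' processed values gave log2 changes of 0.48 for Ppargc1a, 0.32 for Esrrg and 0.28 for Perm1. Ppargc1b, the related coactivator, was 0.59 higher on the log2 scale (SE 0.13, limma adjusted p = 0.00144). Ppargc1a, Esrrg and Perm1 passed the filter on dim probes through the group in which they were high, so their p-values are from the fit with no detection filter (limma adjusted p = 4.42e-08, 0.000208 and 0.000193).

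The listed GABP subunits fell: Gabpa, whose product binds the ETS core, by 1.15 (SE 0.18, limma adjusted p = 7.75e-05) and Gabpb1 by 1.06 (SE 0.14, limma adjusted p = 2.9e-05). Pprc1, a PGC-1-related coactivator, fell by 0.95 (SE 0.25, limma adjusted p = 0.00499) and Polg, the mitochondrial DNA polymerase, by 0.56 (SE 0.16, limma adjusted p = 0.00846). Nrf1 did not pass (log2 change −0.17). In antimiR against Day2 cells 3 of the 14 were higher and 6 lower, and Ppargc1a was at least 2.13-fold lower (limma adjusted p = 1.52e-07 with no detection filter). In mimic against Day1 cells limma called 0 of the 14, while 3 had an unadjusted p under 0.05, and 4 were called lower once mimic replicate 1 was left out.

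Other muscle-type mitochondrial and energy genes resembled the muscle forms in direction. Of 15 listed, 14 had a probe and 12 were tested, with 9 higher and 1 lower in Day2 than in Day1 cells (median 2.81). Ckm, the muscle creatine kinase, and Mb, myoglobin, stayed at background on Day1 arrays, and their levels in Day2 cells were at least 42.7-fold and 41.2-fold higher. With the authors' processed values their log2 changes were smaller, 3.69 and 3.48, so these bounds too belong to this background correction. Pgam2, the muscle phosphoglycerate mutase, was 4.57 higher on the log2 scale (SE 0.16), from a Day1 group with 1 of 3 arrays above background. Pfkm, the muscle phosphofructokinase, was 3.11 higher (SE 0.14, limma adjusted p = 6.83e-10). Ckm, Mb, Pgam2, Ckmt2 and Pygm reached the filter through their Day2 arrays, in part for Mb and Pgam2. With no detection filter Ckm, Mb and Pgam2 had limma adjusted p = 7.47e-12, 5.53e-11 and 4.52e-10. Pdk4, which restrains pyruvate oxidation, fell by 0.88 (SE 0.28, limma adjusted p = 0.014), a call lost without Day1 replicate 1, without Day2 replicate 2 and under median scaling.

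In antimiR against Day2 cells, 1 of the 12 was higher and 9 lower (median −2.78, against 0.03 over all genes). Ckm was at least 44.0-fold, Mb 42.5-fold and Pgam2 21.5-fold lower, each at an adjusted p of 4.85e-10 or less in limma with no detection filter, against log2 changes of −3.68, −3.47 and −2.57 in the authors' processed values. In the same comparison Pdk4 was 1.50 higher (limma adjusted p = 0.000471). Mimic against Day1 gave 0 calls of 12 in limma (1 gene had an unadjusted p under 0.05), and 4 higher and 1 lower without mimic replicate 1. The muscle differentiation markers moved beside them: 8 of 9 tested were higher in Day2 than in Day1 cells (median 7.66), where 28.2% of all genes were. In antimiR against Day2 cells 8 of 9 were lower (median −7.10), where 24.9% of all genes were. Myog and Tnnt3 are among the 9 because their Day2 arrays, where they were high, carried them past the filter on dim probes. In mimic against Day1, 0 of 9 passed limma's test (2 had an unadjusted p under 0.05), where 8.47% of all genes did. Without mimic replicate 1 that count became 5 higher and 1 lower. Their part in the isoform values was not tested.

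**Figure D3:**
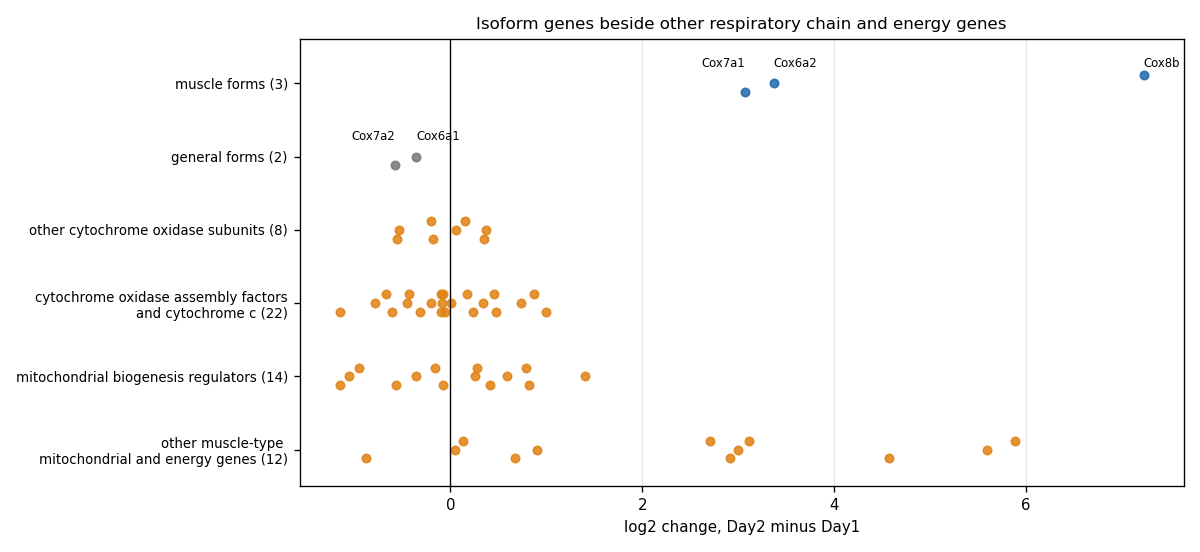
Log2 change in Day2 minus Day1 cells (horizontal axis) of each tested gene, with a point per gene and a row per gene group. Cox7a1 (3.07) and Cox6a2 (3.37) lie among the changes of other muscle energy genes, and Cox8b at 7.23 lies beyond the highest of them, Ckm at 5.88, while the remaining subunits, assembly factors and regulators lie between −1.15 and 1.40.

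Cell types that also make these muscle forms were checked by their markers. Of 8 brown adipocyte markers, Ucp1, Cidea, Prdm16, Elovl3 and Ppara were not above background on any array, while Zic1 was on all 12 and Lhx8 on 3. Zic1 averaged 7.24 on antimiR, 6.87 on Day2, 7.20 on mimic and 6.98 on Day1 arrays. It was 0.37 higher in antimiR than in Day2 cells (SE 0.12, limma adjusted p = 0.0196). The 8 markers summed to between 287.4 and 305.4 on antimiR arrays, 274.3 and 292.8 on Day2 arrays, 272.9 and 307.2 on mimic arrays and 260.7 and 282 on Day1 arrays. Of them Dio2, a deiodinase that muscle also makes, was at least 1.62-fold higher in Day2 than in Day1 cells. It passed the filter through the Day2 arrays alone (limma adjusted p = 1.54e-06 with no detection filter, and a log2 change of 0.29 in the authors' processed values). Of 8 cardiomyocyte markers, Nppa, Nppb, Myl7, Tbx5 and Sln were not above background on any array, while Myh6 was on 2 of 3 Day2 arrays and Tnni3 on 1 of 3, and neither on any other array. Nkx2-5, above background on all 12, was lower in Day2 than in Day1 cells by 0.91 (SE 0.13, limma adjusted p = 3.54e-05), and the list with it summed to between 307.5 and 314.4 on antimiR arrays, 224.3 and 253.7 on Day2 arrays, 275.3 and 307.6 on mimic arrays and 276.9 and 310.8 on Day1 arrays. Of 7 adipocyte markers with a probe, Fabp4, Plin1 and Retn were not above background on any array, and Adipoq and Lep were on 2 of 12 each. Cebpa, above background on 11 arrays, was 1.28 higher in mimic than in Day1 cells (limma adjusted p = 0.0439) and 1.30 higher in antimiR than in Day1 cells (limma adjusted p = 0.0203). Pparg, above background on 12, fell by 0.75 in mimic cells (limma adjusted p = 0.0374), by 0.78 in antimiR cells (limma adjusted p = 0.0129) and by 0.51 in Day2 cells (limma adjusted p = 0.0294), each against Day1. Under median scaling neither gene passed in mimic against Day1, and Pparg passed in none of these comparisons. The Day2 call of Pparg was also lost with no detection filter (limma adjusted p = 0.055). Without mimic replicate 1 both genes passed in mimic against Day1. The sums of the 7 were 261.8 to 287.9 on antimiR, 255.8 to 271.7 on Day2, 278.7 to 309.2 on mimic and 291.9 to 333.3 on Day1 arrays. Summed levels were not higher on Day2 arrays than on all others for any of the 3 lists. These sums rest largely on a few brighter probes, such as Zic1, Nkx2-5 and Pparg, with most other markers at background. They could therefore not show a small rise of the dim markers, such as that of Myh6 and Tnni3 on Day2 arrays. The part of these cell types in the isoform values was not tested.

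The genes whose 4 group means most resembled each muscle form were found by the root mean square difference after centring each gene on its own mean, over the 4 groups and all tested genes. This is a description with no test. For Cox8b the nearest were Myog (0.07), Usp18, an ISG15 protease (0.09), and Actc1, cardiac alpha-actin (0.11). For Cox7a1 they were Chrnd, the delta subunit of the muscle acetylcholine receptor (0.05), Macrod1, an ADP-ribose hydrolase (0.07), and Scara5, a ferritin receptor (0.07). Cox6a2 had no such close match: the nearest were Fgf21, a secreted metabolic hormone (1.32), Srl, the sarcoplasmic reticulum protein sarcalumenin (1.50), and Ankrd1, a stress-responsive muscle protein (1.50). Cox8b and its 3 nearest genes were above background on at most 1 of 3 arrays in each group but Day2, and passed the filter through Day2. Their closeness thus follows from a shared floor and a similar Day2 level. The mimic mean of Cox6a2 includes replicate 1 at 7.73, beside 4.65 and 4.93.

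Fgf21 averaged 4.65 on antimiR, 11.71 on Day2, 4.81 on mimic and 5.44 on Day1 arrays, so its Day1 arrays lay nearer to the treated ones than those of Cox6a2 did. Ankrd1 averaged 9.47 on antimiR, 13.62 on Day2, 10.20 on mimic and 11.09 on Day1 arrays, the same order of groups as Cox6a2 over a narrower range. Cox6a2 averaged 5.13, 12.60, 5.77 and 9.23 in those groups.

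**Figure D4:**
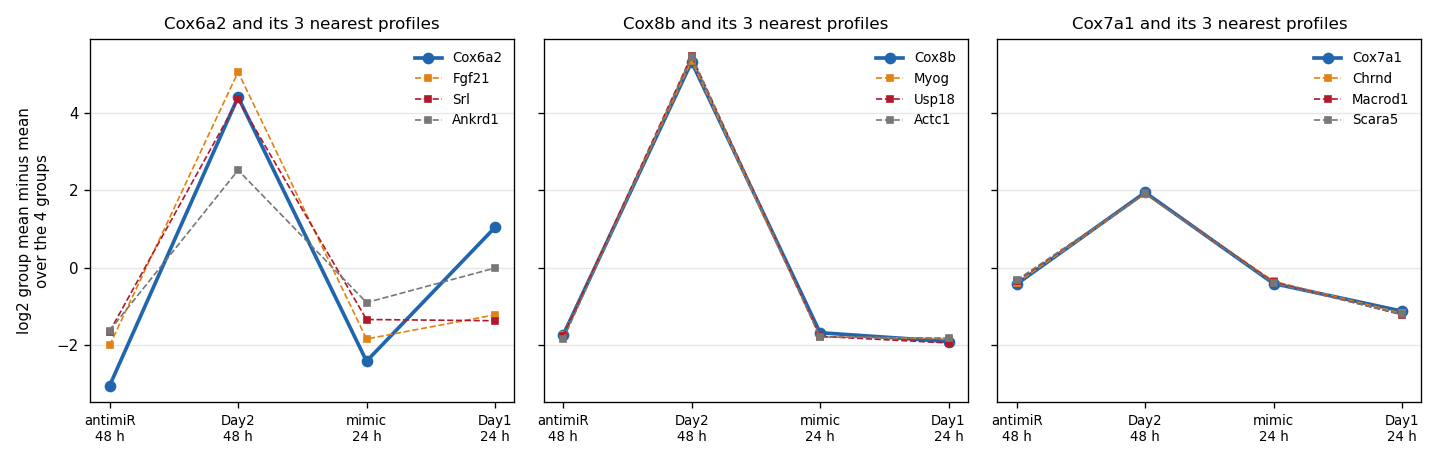
Group means of each muscle form and its 3 nearest genes (vertical axis, log2 mean minus the gene's mean over the 4 groups), by group along the horizontal axis. The lines of Cox8b and Cox7a1 coincide with those of their neighbours, while none of the 3 lines drawn beside Cox6a2 follows it closely.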

How the data were processed

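RNA of 12 C2C12 samples was measured on Illumina arrays. The authors deposited raw probe intensity on a linear scale with a detection score beside it, headed as a p-value, of which 1 minus the score was used as detection p. They also deposited processed log2 values, made with lumi per the submitters' processing notes (version, background step and array slide not given in the sources used here).

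Intensities were background-corrected with limma 3.58.1 (R 4.3.3) by normexp with an offset of 16, negative controls inferred from the detection p, then quantile-normalized and taken to log2. Probes with a detection p under 0.05 on at least 3 of 12 arrays were kept (19809 of 45281). The brightest probe stood for a gene, which gave 10653 genes. The annotation table named 1 symbol for 34885 probes, several for 18 and none for 10378.

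A limma model with 4 group means and an intensity trend (8 residual degrees of freedom, prior 5.36) was tested two-sided with Benjamini-Hochberg adjustment over all genes at 0.05, and the script was tested on simulated data. SDs are over 3 arrays, whose number limits precision. Same-numbered replicates did not deviate together (correlations −0.14 to 0.17), which gave no sign that numbers pair samples. Deviations from means of 3 arrays can hide a small shared effect, so pairing is not excluded.

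The members and all gene lists were chosen with earlier results of these data known. Named are the 6 genes, up to 4 genes higher and 4 lower in Day2 against Day1 from each list, the 3 nearest profiles per muscle form, and further list members chosen after their values were seen. Promoter and microRNA sequences are RefSeq's (GRCm38.p6). Alternatives were other background correction, scaling, filters, probe choice, variance models, a replicate block, the authors' processed values and each array left out.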

Additional observations from a re-analysis of the deposited data

How the results depend on the processing

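All 5 measured isoform genes passed in Day2 against Day1 and in antimiR against Day2, with 3 left under median scaling in each, the muscle forms, and 5 with any array left out. In mimic against Day1, 1 passed, against 0 with only the arrays compared, 4 with array weights and 0 to 2 with an array left out. In antimiR against Day1, 2 passed, against 1 under median scaling, 1 with no detection filter and 1 to 2 with an array left out. Under array weights the mimic changes of Cox6a1 (0.17), Cox8b (0.35) and Cox7a1 (0.98) passed, and in antimiR against Day1 that of Cox6a1 (0.21, and 0.22 with the mean of its probes). Under median scaling 5 changes took the other sign without passing: Cox4i1 (−0.065) and Cox5b (−0.10) in Day2 against Day1, and Cox4i1 (0.46), Cox5b (0.39) and Cox14 (0.060) in antimiR against Day2. Relative to the shift of all genes under that scaling (−0.12 and 0.31), Cox4i1 (0.14) and Cox5b (0.079) in antimiR against Day2 still turned, while Cox4i1 (0.057) and Cox5b (0.025) in Day2 against Day1 and Cox14 (−0.25) did not. The cause was not tested. No member's change took the other sign with a call under any alternative run.

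With the replicate number as a block, 1 member passed in antimiR against Day1, the Cox7a1 call being lost (0.70), and genes past the threshold numbered 5868, 53, 5148 and 1773 in Day2 against Day1, mimic against Day1, antimiR against Day2 and antimiR against Day1, against 6088, 902, 5466 and 2413 without it. In the same order of comparisons, 10598, 1296, 9371 and 3841 of the 19809 kept probes passed when all were fitted, which are counts of probes and not of genes. Genes past the threshold were, in that order, 1879, 25, 1793 and 201 under median scaling, and 7089, 4909, 6867 and 4384 with array weights. In mimic against Day1 they were 3 with only the arrays compared, 183 with no detection filter, 590 with no intensity trend and 28 to 4017 with an array left out, the most without mimic replicate 1. In antimiR against Day1 they were 3793 with only the arrays compared and 647 to 3752 with an array left out. Under median scaling the share of calls that were higher was 36% in mimic against Day1, 64.8% in antimiR against Day2 and 78.6% in antimiR against Day1, against 51.8%, 51.6% and 56.8%. In mimic against Day1 it was 66.7% with only the arrays compared. Levels of Cox8b outside Day2 cells are limited by the background.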

Other observations

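The muscle forms all lie on chromosome 7, and the tested genes next to them on that chromosome were read after the values of the members had been seen. The nearest to Cox6a2 on one side, Trim72, which encodes the membrane repair protein MG53 of striated muscle, was 6.67 higher on the log2 scale in Day2 than in Day1 cells (SE 0.23, limma adjusted p = 4.01e-11) and fell by 6.62 in antimiR cells against Day2 (limma adjusted p = 4.93e-11). Its changes against Day1 were −0.00 with the mimic (0.08 without mimic replicate 1) and 0.04 with antimiR, neither past the threshold, where those of Cox6a2 were −3.46 and −4.09, and the difference between the genes was not tested. Kat8, a histone acetyltransferase beyond it, was 0.63 higher in Day2 than in Day1 cells (limma adjusted p = 0.00111).

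The 4 tested neighbours of Cox8b, namely Sirt3, Psmd13, Pgghg and Ifitm5, did not pass in Day2 against Day1 (limma adjusted p between 0.0669 and 0.904). Next to Cox7a1, the calpain small subunit gene Capns1 did not pass in Day2 against Day1 (log2 change −0.14, limma adjusted p = 0.393) but was 0.51 higher in mimic than in Day1 cells (limma adjusted p = 0.0391, and 0.68 higher without mimic replicate 1) and 0.76 higher in antimiR than in Day2 cells (limma adjusted p = 0.000249). Tbcb, a tubulin-folding cofactor beyond it, fell by 0.37 in Day2 cells against Day1 (limma adjusted p = 0.00192).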
